A study of Mus musculus with 128 samples.

Results

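The cytosolic ribosome is the machine that reads mRNA into protein. Its small subunit decodes the message with proteins named Rps, and its large subunit, with proteins named Rpl, joins the amino acids. The subunits need their proteins in matched amounts, and cells commonly set the proteins' output together, in part through a tract of pyrimidines (C or T) at the very start of these mRNAs that lets growth signals tune their translation. Neurons and their progenitors depend on this supply for growth and for local protein synthesis.

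The members were chosen by name from the 21225 probe sets (1 per gene) of the arrays. The symbol had to begin with Rpl or Rps and a number, or be Rplp0, Rplp1, Rplp2 or Rpsa. The S6 kinase genes and the pseudogenes marked by -ps at the end of the symbol were left out. This gave 50 genes: 18 small subunit genes, 21 large subunit genes, 10 paralogs or retroposed copies, and Rps19bp1, which encodes a protein that binds a ribosomal protein and entered by its name. Rps3a3 and Rps4l carry a pseudogene annotation in RefSeq but no -ps in the symbol, and stayed in. Another 41 protein-coding genes of the same rule were not analysed here, so the values cover part of the family. No member lies in the MMU16 or MMU17 segments that are triplicated in these mice. A member's probes may also pick up RNA of near-identical copies elsewhere in the genome, which was not tested.

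The RNA came from 3 mouse models of Down syndrome and their euploid littermates. Ts1Cje mice carry an extra copy of MMU16 from Scaf4 to Zbtb21 and have lost 1 copy of a few telomeric MMU12 genes. Ts65Dn mice carry MMU16 from Mrpl39 to Zbtb21 in an extra copy, together with a centromeric MMU17 stretch from Scaf8 to Pde10a that has no counterpart on human chromosome 21. Dp(16)1/Yey mice carry a duplication from Lipi to Zbtb21. The Ts1Cje and the Dp(16)1/Yey line were kept through trisomic fathers and C57BL/6J mothers in the sample descriptions (the study's methods also name C57BL/6N mothers), and the Ts65Dn line through trisomic mothers and B6EiC3Sn.BLiAF1/J fathers, which are F1 hybrids. Forebrain was taken at E15.5 from 5 euploid and 5 trisomic Ts1Cje, 7 euploid and 6 trisomic Ts65Dn, and 6 euploid and 6 trisomic Dp(16)1/Yey embryos of both sexes. Cortex, hippocampus and cerebellum were taken at 6 to 7 months from 5 euploid and 5 trisomic males of each model, and the same males gave the 3 regions. In all, 128 arrays of 65 animals were read, and 2 Ts1Cje animals had technical repeats, which were averaged.

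The values are log2 signals, so a difference of 1 is a doubling, and the authors normalized each model and tissue apart. Array medians were 6.45 to 6.74 in the adult regions and 7.24 to 8.55 in the forebrain. Marker genes went with the labelled tissues across files: the summed linear signal of 6 Purkinje and granule cell genes in euploid animals was 18983 to 23310 in cerebellum against at most 3925 elsewhere, and that of 4 genes of dividing cells was 2792 to 6359 in forebrain against at most 158 in the adult regions. In whole tissue, fewer cells of a type and less RNA per cell cannot be told apart. Of the 50 members, 37 to 42 lay above the median signal of all probe sets, depending on the experiment. Rpl39l, a paralog best known from the testis, had the lowest mean signal of the members in all 12 experiments.

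Start sequences of members named below show where the pyrimidine tract is and is not found. The lines give the 5 bases before and the 20 bases from the annotated start, read from RefSeq promoter windows on GRCm38.p6, with the unbroken pyrimidine run from the first transcribed base in capitals where that base is a C. The first 5 genes, which stand among the results below, open with a C and at least 4 more pyrimidines, and the last 3, also named below, do not. Rpl22 has 2 windows, and the one shown lies inside the gene, which begins at 152324436. It does not tell whether the mRNA from the gene's first base opens with the tract.
Rplp2, chr7:141447646-141447670, plus strand: tcttcCTTTCgccgccggacgccgc
Rps10, chr17:27635225-27635249, minus strand: cgcccCTTCCTTTCCagcctccgcc
Rps21, chr2:180257374-180257398, plus strand: ccgccCTCCTgcccaatagtgctgc
Rpl14, chr9:120571512-120571536, plus strand: tctctCTTCTCgctgagcgccgcca
Rps6, chr4:86857348-86857372, minus strand: cgggcCTCTTTTTCgtgacgcctcc
Rps25, chr9:44407709-44407733, plus strand: atcttagcgaggctgctgtggtcta
Rpl22, chr4:152325721-152325745, plus strand: gaaaagcaatagctggccgatcgtt
Rps24, chr14:24490673-24490697, plus strand: ggtccttccttgcgcgttgatatga
A start of C and 4 pyrimidines on the transcribed strand was present in 9 of the 38 members with a window, or in 18.8% of their windows, against 2.51% of all 32851 windows. None of 69 mitochondrial ribosomal protein genes, whose mRNAs serve the separate ribosome of mitochondria, had it. The match rests on the exact annotated start, and a tract that begins before that base and runs on past it, as in the Rps24 window, where the first transcribed base is a T, is not counted.

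No member was DEX, which here means a joint FDR below 10% over all probe sets of all 12 comparisons of trisomic and euploid littermates by limma. The lowest adjusted P of a member was 0.405. The share of all probe sets that were DEX was small too. It was 0.259%, 0.0424%, 0.316% and 0.429% in Ts1Cje forebrain, cortex, hippocampus and cerebellum, and 0.264%, 0.349%, 0.132% and 0.297% in the same tissues of Ts65Dn. For Dp(16)1/Yey it was 0.0895%, 0.00942%, 0.066% and 0.0188%. Changes of members are therefore given below as values with unadjusted and adjusted P, and the count of members past an unadjusted P of 0.05 is set beside the share of all probe sets past it in the same direction.

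Over the 600 tests of members, 33 were lower and 8 were higher in trisomic animals at an unadjusted P under 0.05. Of all probe sets, 1.22% to 6.11% were lower and 1.2% to 5.36% higher at this P, depending on the comparison. The lower members gathered in Dp(16)1/Yey forebrain and hippocampus, with 9 each, where 2.51% and 4.72% of all probe sets were lower. Of the 50 members, 19 never passed this P, 22 passed it once, 8 passed it in 2 comparisons, and Rps25 alone passed it in 3. The same counts over all probe sets were not made, so no background stands beside these. The median change of the members was below 0 in 10 of the 12 comparisons and in all 9 adult ones. Comparisons of 1 model share the adult males, so these 9 are not independent. The median of all probe sets was also mostly below 0, at -0.017 to -0.001. It was above 0 only in Ts65Dn hippocampus (0.028), Ts65Dn cerebellum (0.010) and Dp(16)1/Yey forebrain (0.008). At any P, 47.8%, 44.5%, 46.5% and 43.6% of all probe sets were higher in Ts1Cje forebrain, cortex, hippocampus and cerebellum. The shares were 48.5%, 49.7%, 59.3% and 54.5% in the same tissues of Ts65Dn and 52.5%, 46.6%, 45.2% and 45.1% in Dp(16)1/Yey.

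**Figure D1:**
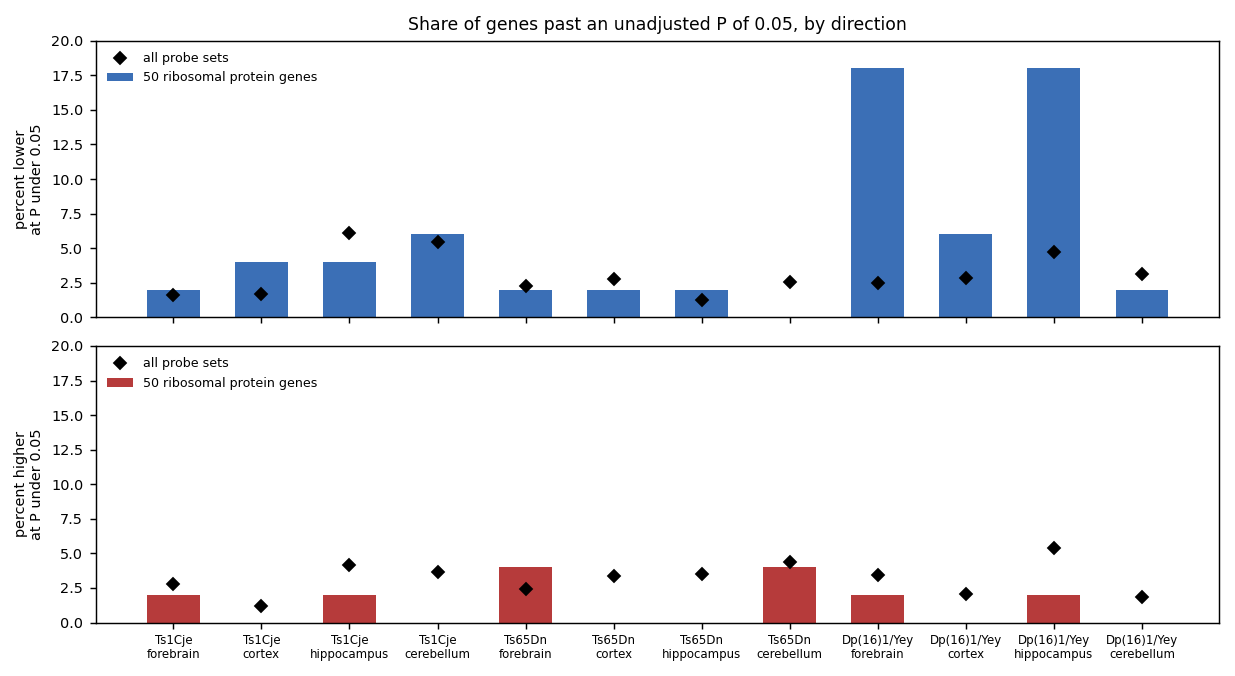
Percent of the 50 ribosomal protein genes (bars) and of all 21225 probe sets (diamonds) past an unadjusted limma P of 0.05 in each of the 12 comparisons (x axis), lower in trisomic animals in the upper panel and higher in the lower panel. The bars for Dp(16)1/Yey forebrain and hippocampus, 9 of 50 genes each, stand above diamonds at 2.51% and 4.72%.

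In Dp(16)1/Yey forebrain 37 members were lower and 13 higher, and the median change was -0.117, against 0.008 for all probe sets. At an unadjusted P under 0.05, 9 were lower, against 2.51% of all probe sets, and 1 was higher, against 3.41%. The lower ones came from both subunits (Rps25, Rps21, Rps9, Rpl22, Rpl31, Rpl27a and Rpl14) and from the paralogs Rpl7l1 and Rps27l. The higher one was Rps23rg1, a retroposed copy of Rps23.

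Rps25, a small subunit protein known for its part in initiation at internal ribosome entry sites, read 7.14 at the lowest, 7.62 at the median and 7.71 at the highest in euploid embryos. The trisomic embryos read 6.84, 7.23 and 7.41. The difference was -0.39 (SE 0.12, unadjusted P = 0.00735, adjusted P = 0.603). The groups overlapped through 1 low euploid embryo, and 2 trisomic embryos lay below every euploid one.

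Rpl22, a large subunit protein that also binds other RNAs, read 9.22, 9.55 and 9.82 in euploid embryos. It read 9.03, 9.26 and 9.42 in trisomic ones, a difference of -0.29 (SE 0.096, unadjusted P = 0.00901, adjusted P = 0.637). The groups overlapped, with 2 trisomic embryos below all euploid embryos.

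Rpl31, which lies near the exit of the peptide tunnel, ranged from 8.40 to 8.76 in euploid and from 8.19 to 8.44 in trisomic embryos, a difference of -0.20 (SE 0.073, unadjusted P = 0.0143, adjusted P = 0.69). Here 4 of 6 trisomic embryos lay below all euploid ones. Rps23rg1 ran the other way, from 6.24 to 6.80 in euploid and from 6.54 to 7.02 in trisomic embryos, a difference of 0.32 (SE 0.11, unadjusted P = 0.0127, adjusted P = 0.677). Rpl14, a large subunit protein, had the lowest change of the members in this comparison, at -0.48 (SE 0.19, unadjusted P = 0.023, adjusted P = 0.738). Its trisomic embryos were spread from 7.31 to 8.56, and the euploid embryos lay at 8.13 to 8.67.

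The other members lay mostly below their euploid means too. The family level of an animal is taken here as the median over the 50 members of its log2 signal minus the euploid mean of each gene. In euploid embryos it was -0.125 at the lowest, 0.019 at the median and 0.070 at the highest, and in trisomic embryos -0.199, -0.116 and 0.017. Of 6 trisomic embryos 5 were below 0 and 3 were below all euploid embryos. The mitochondrial ribosomal protein genes, which serve another ribosome, had a median of -0.108 (9 of 76 lower and 2 higher at an unadjusted P under 0.05). The 94 ribosome biogenesis genes had -0.100 (6 lower, 1 higher), 48 translation factors -0.085 (4 lower, 0 higher) and 11 RNA polymerase I genes -0.131 (3 lower, 0 higher). The ribosomal protein pseudogenes stood at -0.002. Olfactory receptor probe sets, which measure little but background in brain, had a median shift of 0.123 to 0.291 on 3 trisomic arrays and of 0.219 on 1 euploid array, and of -0.094 to -0.014 on the other 8. Their part in the result was not tested. With their array median as a covariate the members' median was -0.074. Markers of excitatory neurons were lower too, 5 of 6 genes with a median of -0.156, and their summed signal was 11539 to 12983 in euploid and 10125 to 12257 in trisomic embryos. Inhibitory neuron genes had a median of -0.100 (4 of 5 lower), 6507 to 7219 against 6128 to 7140, and genes of dividing cells -0.092 (4 of 4 lower), 3448 to 6359 against 3051 to 4828. Genes of neurons in general went the other way, with a median of 0.042 (4 of 6 higher). So did astrocyte genes, with 0.040 (4 of 5 higher), and oligodendrocyte genes, with 0.056 (3 of 5 higher). The part of these cell types was not tested. Without the trisomic embryo TSf11, 3 members were lower at this P, and without the euploid embryo Eupm13, 13 were.

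**Figure D2:**
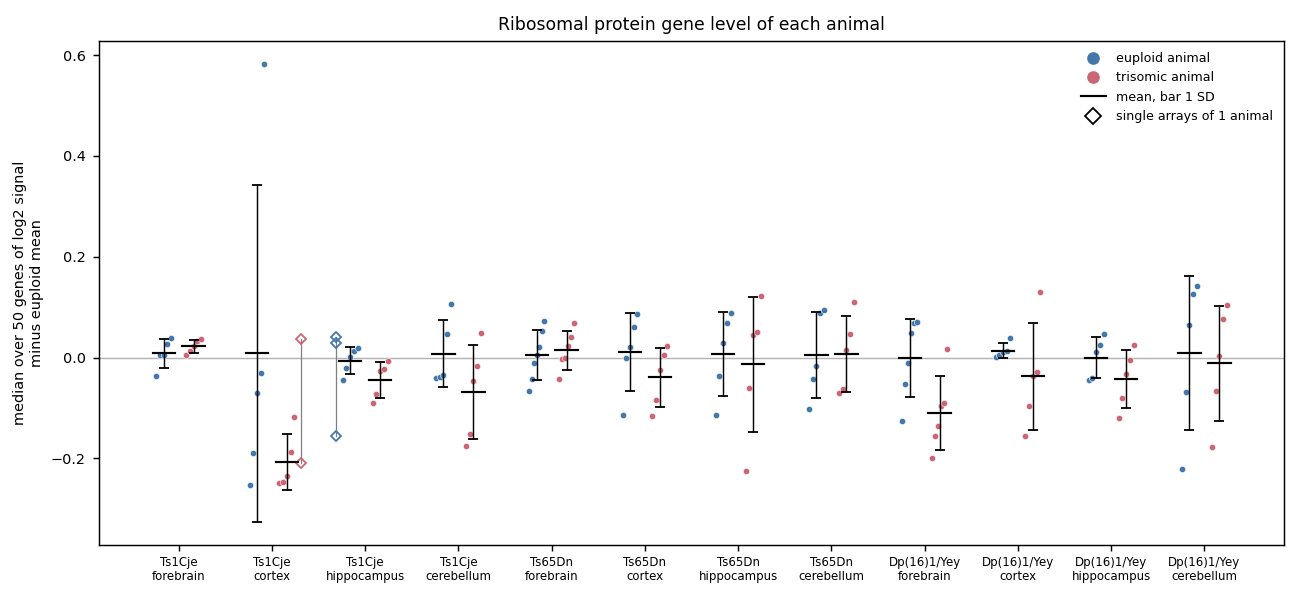
Family level of each animal (y axis, median over the 50 genes of log2 signal minus the euploid mean, in log2 units) in the 12 comparisons (x axis), with blue points for euploid and red points for trisomic animals and black bars for the mean and 1 SD. Open diamonds are the single arrays of the Ts1Cje animals read more than once. In Ts1Cje cortex 1 euploid animal stands at 0.583, and in Dp(16)1/Yey forebrain the trisomic median is -0.116.

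In Dp(16)1/Yey hippocampus the median was -0.055, against -0.013 for all probe sets, with 33 members lower and 17 higher. Again 9 members were lower at an unadjusted P under 0.05, against 4.72% of all probe sets, and 1 was higher, against 5.36%. The lower ones included Rps14, Rps24, Rps19, Rps2, Rplp1, Rplp2 and Rpl7l1. Rpl7l1 was the member that passed this P in both Dp(16)1/Yey forebrain and Dp(16)1/Yey hippocampus.

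Rps14, a small subunit protein whose loss of a copy impairs red cell formation in humans, read 10.08, 10.13, 10.19, 10.20 and 10.29 in the euploid males. It read 9.75, 9.82, 9.96, 9.98 and 10.04 in the trisomic males, so the groups did not overlap. The difference was -0.27 (SE 0.07, unadjusted P = 0.00228, adjusted P = 0.405).

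Rplp2, an acidic protein of the stalk that recruits elongation factors, read 8.86, 8.88, 8.97, 9.11 and 9.26 in euploid and 8.58, 8.61, 8.73, 8.76 and 8.91 in trisomic males. The difference was -0.30 (SE 0.089, unadjusted P = 0.00582, adjusted P = 0.568), and 4 of 5 trisomic males lay below all euploid ones. Rplp1, its partner in the stalk, was lower by a smaller step, -0.16 (SE 0.07, unadjusted P = 0.0384, adjusted P = 0.783).

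Rps24, mutated in some patients with Diamond-Blackfan anaemia, read 4.38, 4.49, 4.63, 5.21 and 5.43 in euploid and 3.62, 3.86, 4.11, 4.41 and 4.48 in trisomic males. The difference of -0.73 (SE 0.21, unadjusted P = 0.00475, adjusted P = 0.533) was the largest in size in this tissue, on a dim probe set. In the cerebellum of the same model Rps24 was lower by -0.42 (SE 0.17, unadjusted P = 0.0281, adjusted P = 0.757), and in the cortex the change was -0.0377 (SE 0.33). Rps15a, a small subunit protein, was the higher member in the hippocampus, at 0.14 (SE 0.062, unadjusted P = 0.0413, adjusted P = 0.786), with 4 of 5 trisomic males above all euploid ones.

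The mitochondrial ribosomal protein genes had a median of 0.038, with 8 of 76 higher and 0 lower at an unadjusted P under 0.05 and 0 DEX. The ribosome biogenesis genes had a median of 0.054, with 11 of 94 higher and 1 lower. Translation factors stood at 0.018 (3 higher, 2 lower of 48). The family level was -0.044 to 0.047 in euploid and -0.119 to 0.025 in trisomic males, which overlapped, with 2 of 5 trisomic males below all euploid ones. Choroid plexus genes had a median of -0.251 (5 of 5 lower), with a summed signal of 3280 to 12591 in euploid and 1653 to 11889 in trisomic males. The olfactory receptor probe sets had a median of -0.055. The part of either in the result was not tested, and with the array median of the receptor probe sets as a covariate 6 members passed the unadjusted P in either direction. The count of lower members was 3 without the trisomic male TS281 and 3 without the euploid male Eup263.

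In Dp(16)1/Yey cortex 35 members were lower, the median was -0.041 (all probe sets -0.008), 3 were lower at an unadjusted P under 0.05, against 2.83%, and 0 higher, against 2.04%. Rps25 led them, with 6.33, 6.34, 6.40, 6.43 and 6.72 in euploid and 5.78, 6.02, 6.02, 6.13 and 6.33 in trisomic males, a difference of -0.39 (SE 0.11, unadjusted P = 0.00333, adjusted P = 0.472). The groups met at 6.33, and 4 of 5 trisomic males lay below all euploid ones. The pseudogene-annotated copy Rps4l (-0.24, SE 0.087, unadjusted P = 0.0167, adjusted P = 0.705) and Rpl35a (-0.18, SE 0.083, unadjusted P = 0.0458, adjusted P = 0.792), a large subunit gene of MMU16 outside the duplication, were the others. The family level in cortex was 0.001 to 0.039 in euploid males and -0.156 to 0.130 in trisomic males, of which 4 of 5 lay below all euploid ones and 1 above. Choroid plexus genes had a median of -0.525 in this tissue (5 of 5 lower), with a summed signal of 582 to 5900 in euploid and 857 to 5120 in trisomic males. Inhibitory neuron genes had -0.174 (5 of 5 lower), 4076 to 4764 against 3644 to 4621, and progenitor genes -0.214 (4 of 5 lower), 719 to 948 against 740 to 843. Genes of neurons in general had 0.051 (4 of 6 higher) and excitatory neuron genes 0.026 (4 of 6 higher). Their part in the result was not tested. In Dp(16)1/Yey cerebellum 25 members were lower and 25 higher, the median was -0.013 (all probe sets -0.012), Rps24 was the 1 member lower at this P, against 3.12%, and 0 were higher, against 1.88%.

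Rps25 was the member past this P most often, with no count of recurrence over all probe sets to set beside it. It passed an unadjusted P of 0.05 as lower in Dp(16)1/Yey forebrain, Dp(16)1/Yey cortex and Ts65Dn hippocampus. In Ts65Dn hippocampus the euploid males read 5.32, 6.52, 6.72, 6.75 and 6.80 and the trisomic males 4.88, 5.24, 5.68, 5.70 and 6.03, a difference of -0.92 (SE 0.28, unadjusted P = 0.00617, adjusted P = 0.579). The euploid male Eup17, at 5.32, lay among the trisomic ones, and the other 4 lay above all of them. Without Eup17 the difference was -1.19 (SE 0.20, unadjusted P = 6.06e-05) and Rps25 was DEX, at an adjusted P of 0.0439. Leaving out the euploid male that lay among the trisomic ones has to widen the difference, so this is no separate evidence of a change. On these arrays the choroid plexus genes had a median change of -0.824 (5 of 5 lower), with a summed signal of 7484 to 9340 in euploid and 943 to 9626 in trisomic males. Oligodendrocyte genes had a median of 0.336 (5 of 5 higher), 9725 to 10585 against 10384 to 16276, and excitatory neuron genes -0.479 (5 of 6 lower), 6029 to 6684 against 3120 to 7613. Genes of neurons in general went the other way from the excitatory ones, with a median of 0.078 (5 of 6 higher). Inhibitory neuron genes did so too, with 0.089 (4 of 5 higher). Their part in the Rps25 value was not tested. In the other 9 comparisons Rps25 changed by -0.12 to 0.21.

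**Figure D3:**
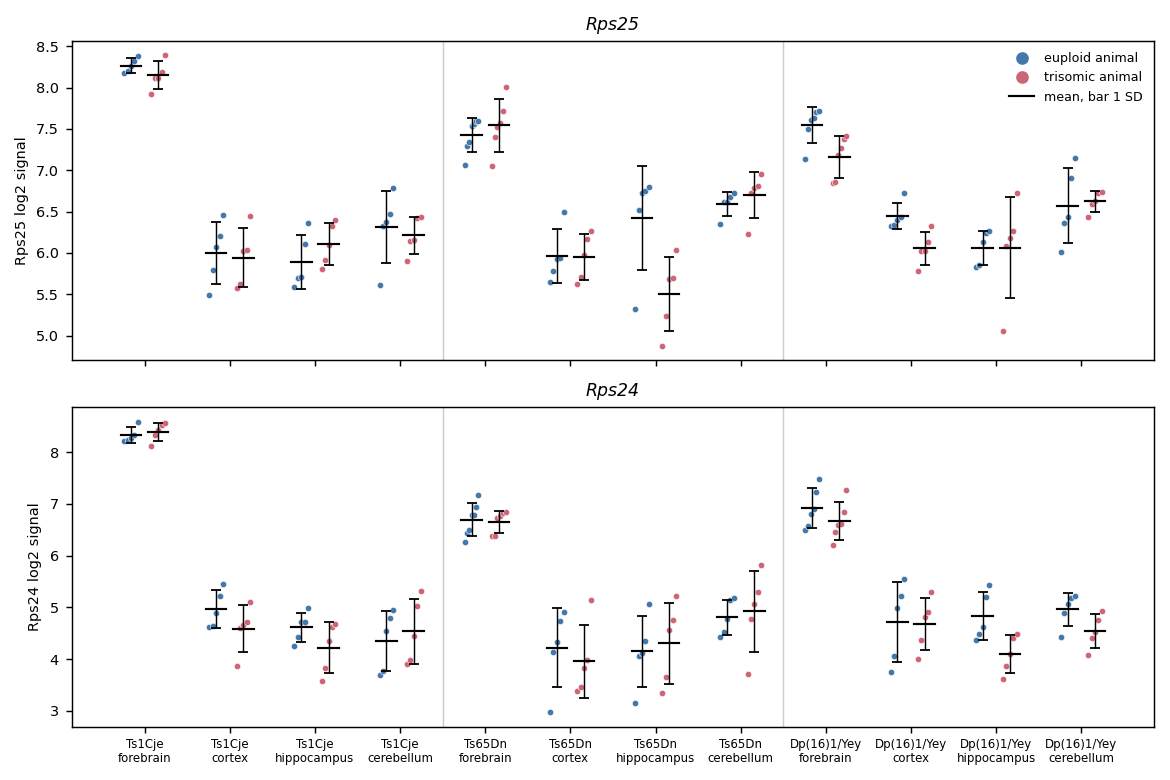
Log2 signal (y axis) of Rps25 in the upper and Rps24 in the lower panel for each animal in the 12 comparisons (x axis), blue for euploid and red for trisomic, with the mean and 1 SD in black. Signals are comparable within a comparison, since each was normalized apart. Rps25 is lower in trisomic animals in Ts65Dn hippocampus and in Dp(16)1/Yey forebrain and cortex, and Rps24 spreads widely within adult groups, as from 3.16 to 5.06 in euploid Ts65Dn hippocampus.

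**Figure D4:**
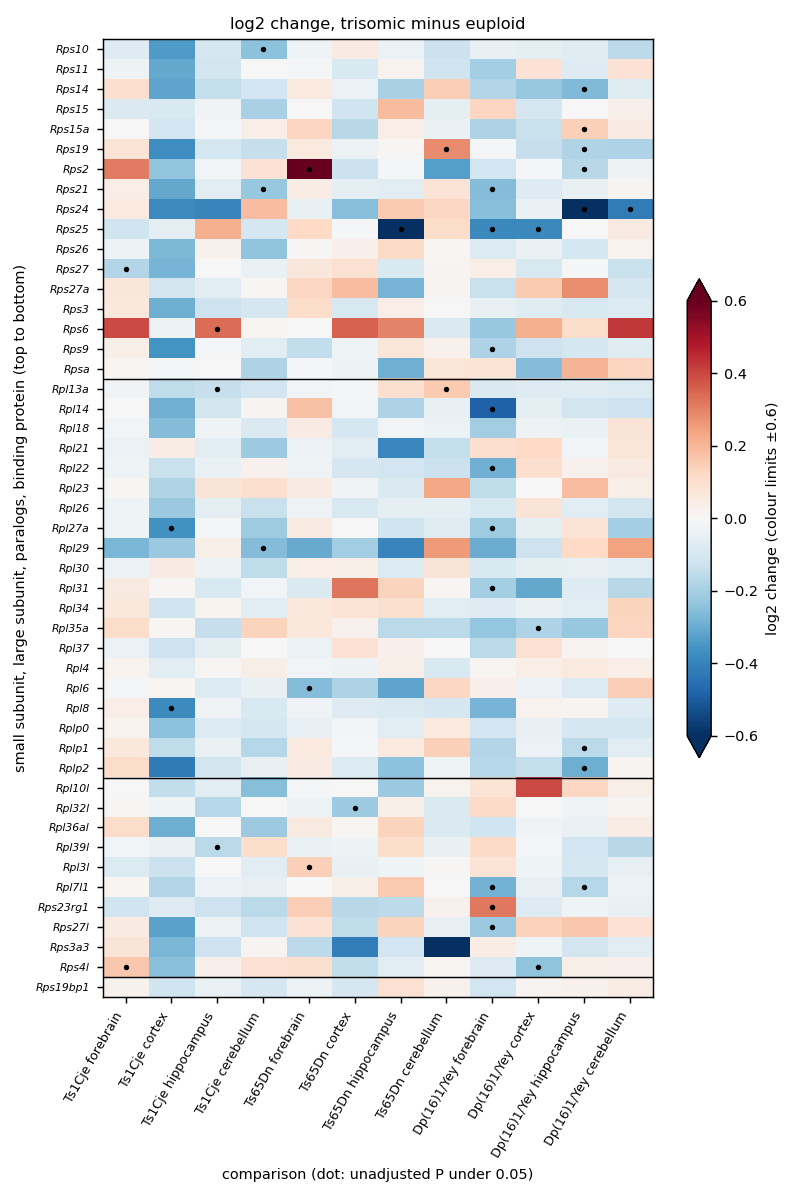
Log2 change, trisomic minus euploid, of 48 of the 50 genes (rows) in the 12 comparisons (columns), blue for lower and red for higher, with colour limits at ±0.6 and a dot where the unadjusted limma P was under 0.05. The Ts1Cje cortex column is lower for 43 of the 48 genes with 2 dots, and the lowest cells with a dot are Rps25 in Ts65Dn hippocampus (-0.92) and Rps24 in Dp(16)1/Yey hippocampus (-0.73).

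In the other Ts65Dn tissues the medians of the members were -0.034 to 0.003. In forebrain 26 members were higher and 24 lower, with a median of 0.003 (all probe sets -0.003), and 1 was lower at an unadjusted P under 0.05, against 2.29%, and 2 higher, against 2.45%. Rpl6, a large subunit protein, was lower by -0.26 (SE 0.085, unadjusted P = 0.00855, adjusted P = 0.628), with 4 of 6 trisomic embryos below all euploid ones. Rps2, a small subunit protein at the mRNA entry, was higher by 0.69 (SE 0.29, unadjusted P = 0.0344, adjusted P = 0.775). The euploid embryos fell into 4 at 10.59 to 10.89 and 3 at 11.80 to 12.48, and the trisomic embryos lay at 11.70 to 12.50. Rpl3l, the striated muscle paralog of Rpl3, was the other higher one, at 0.15 (SE 0.066, unadjusted P = 0.0455, adjusted P = 0.792), on a dim probe set.

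In Ts65Dn cortex the median was -0.034 (all probe sets -0.001), with 36 members lower, of which 1 passed the unadjusted P, against 2.74%, and 0 higher ones, against 3.33%. It was the paralog Rpl32l, at -0.22 (SE 0.07, unadjusted P = 0.00851, adjusted P = 0.627). In hippocampus the median was -0.029, while that of all probe sets was 0.028, and Rps25 was the 1 member lower, against 1.22%, with 0 higher, against 3.48%. In cerebellum the median was -0.001 (all probe sets 0.010), 0 members were lower, against 2.52%, and 2 were higher, against 4.35%.

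The higher members in Ts65Dn cerebellum were Rps19 and Rpl13a. Rps19, the gene most often mutated in Diamond-Blackfan anaemia, read 7.83, 7.83, 7.91, 7.94 and 7.95 in euploid and 7.90, 8.16, 8.22, 8.25 and 8.34 in trisomic males, a difference of 0.28 (SE 0.078, unadjusted P = 0.0032, adjusted P = 0.469). The trisomic male TS9 read 7.90, within the euploid range, and the other 4 lay above it. Without TS9 the difference was 0.35 (SE 0.062, unadjusted P = 0.000112) and Rps19 was DEX, at an adjusted P of 0.0681. Leaving out the trisomic male within the euploid range has to widen the difference, so this too is no separate evidence of a change. Rpl13a, a large subunit protein that can leave the ribosome to silence inflammatory mRNAs, was higher by 0.16 (SE 0.067, unadjusted P = 0.0338, adjusted P = 0.772).

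Ts1Cje forebrain had the narrowest spread of family levels. The median of the members was 0.011 (all probe sets -0.003), 30 members were higher and 20 lower, and the family level was -0.036 to 0.038 in euploid and 0.006 to 0.037 in trisomic embryos. At an unadjusted P under 0.05 there was 1 lower member, Rps27 (-0.18, SE 0.067, unadjusted P = 0.0216, adjusted P = 0.734), against 1.6% of all probe sets. There was 1 higher, Rps4l (0.16, SE 0.048, unadjusted P = 0.00537, adjusted P = 0.557), against 2.79%. Rps4l read 9.29 to 9.42 in euploid and 9.42 to 9.64 in trisomic embryos, and 4 of 5 trisomic embryos lay above all euploid ones.

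Ts1Cje cortex gave the largest shift of the family, and its size depended largely on 1 euploid male. All 18 small subunit genes, 16 of 21 large subunit genes, all 10 paralogs and Rps19bp1 were lower, 45 members in all, with a median of -0.179 against -0.015 for all probe sets. At an unadjusted P under 0.05 there were 2 lower, against 1.68%, and 0 higher, against 1.2%. The family level of the euploid males was -0.252, -0.189, -0.071, -0.030 and, in Eup347, 0.583, and that of the trisomic males was -0.248, -0.246, -0.234, -0.188 and -0.118. All 5 trisomic males thus lay within the range of the other 4 euploid ones. In Eup347, 45 of 50 members were above the euploid mean, and the shift was 0.428 for the mitochondrial ribosomal protein genes, 0.290 for the olfactory receptor probe sets and 0.108 for all probe sets. Without Eup347 the median of the members was -0.064, with 41 lower and 0 past the unadjusted P in either direction.

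The lower members of Ts1Cje cortex were Rpl27a and Rpl8. Rpl27a, a large subunit protein, read 8.84, 9.07, 9.11, 9.45 and 9.80 in euploid and 8.80, 8.85, 8.86, 8.96 and 9.00 in trisomic males, a difference of -0.36 (SE 0.15, unadjusted P = 0.0345, adjusted P = 0.775). Rpl8, a large subunit protein next to the peptidyl transferase centre, read 9.75, 9.85, 9.97, 10.06 and 10.70 against 9.44, 9.57, 9.63, 9.85 and 9.92, a difference of -0.38 (SE 0.16, unadjusted P = 0.037, adjusted P = 0.779). The groups overlapped for both genes, with 1 trisomic male below all euploid ones for Rpl27a and 3 for Rpl8.

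In Ts1Cje hippocampus 41 members were lower, with a median of -0.041 (all probe sets -0.007), and 2 passed the unadjusted P as lower, against 6.11%, and 1 as higher, against 4.19%. Rpl13a read 12.03, 12.05, 12.07, 12.08 and 12.12 in euploid and 11.90, 11.90, 11.91, 11.96 and 11.98 in trisomic males, without overlap. Its difference was small, -0.14 (SE 0.043, unadjusted P = 0.0068, adjusted P = 0.594). Rpl39l was lower by -0.16 (SE 0.066, unadjusted P = 0.0299, adjusted P = 0.764) on a dim probe set, at means of 3.27 and 3.10. Rps6, the ribosomal target of the S6 kinases, was higher by 0.34 (SE 0.14, unadjusted P = 0.0346, adjusted P = 0.775), with overlapping groups.

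In Ts1Cje cerebellum 35 members were lower, with a median of -0.071 (all probe sets -0.017), and 3 were lower at the unadjusted P, against 5.44%, and 0 higher, against 3.62%. They were Rps10 (-0.24, SE 0.10, unadjusted P = 0.0319, adjusted P = 0.766), Rpl29 (-0.26, SE 0.11, unadjusted P = 0.0405, adjusted P = 0.785) and Rps21 (-0.23, SE 0.11, unadjusted P = 0.0468, adjusted P = 0.793). All 3 had overlapping groups.

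Repeated arrays of an animal also differed in the family level. The trisomic Ts1Cje male TS348 had a cortex array at 0.037 and a repeated one at -0.209. Between them 36 of 50 members were lower on the repeat, with a median of -0.280, while 56.2% of all probe sets were lower, with a median of -0.092. The mitochondrial ribosomal protein genes moved by -0.363 and the olfactory receptor probe sets by 0.339. The euploid male Eup324 had a hippocampus array at 0.040, a restained one at 0.029 and a repeated one at -0.155. The repeat was lower by -0.201 for the members and by -0.207 for all probe sets, and restaining moved the members by -0.004.

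Within groups, many members varied together from array to array. Each value was taken as its deviation from the mean of its genotype, model and tissue, which left 125 values, and each member was correlated with the median of the other subunit genes. The values share arrays and, in adults, animals. The correlation was 0.83 for Rpl18, 0.82 for Rps14, 0.81 for Rpl8 and 0.80 for Rps21, and its median was 0.46 over the 50 members. For all probe sets the median was 0.024 and the 95th percentile 0.50, and 23 members lay above that percentile. Among the paralogs it was 0.69 for Rpl7l1, 0.62 for Rps27l, 0.57 for Rpl36al and 0.53 for Rps4l, against 0.24 for Rpl10l, 0.16 for Rpl39l and 0.0076 for Rpl3l. It was 0.60 for Rps19bp1.

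At the other end, 14 members had a correlation under 0.2. Rps25 (0.034), Rps24 (0.084), Rps6 (0.06) and Rpl31 (-0.066), which carried several of the changes above, were among them. Rps6 and Rps24 were also among the most variable probe sets of the arrays within groups, with an SD of 0.60 and 0.498, above those of 99.8% and 99.5% of all probe sets, where the median SD was 0.158. Rps25 had an SD of 0.322. Genes with a pyrimidine start stood at both ends, with 0.06 for Rps6 and 0.16 for Rps15a but 0.80 for Rps21 and 0.71 for Rplp2.

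**Figure D5:**
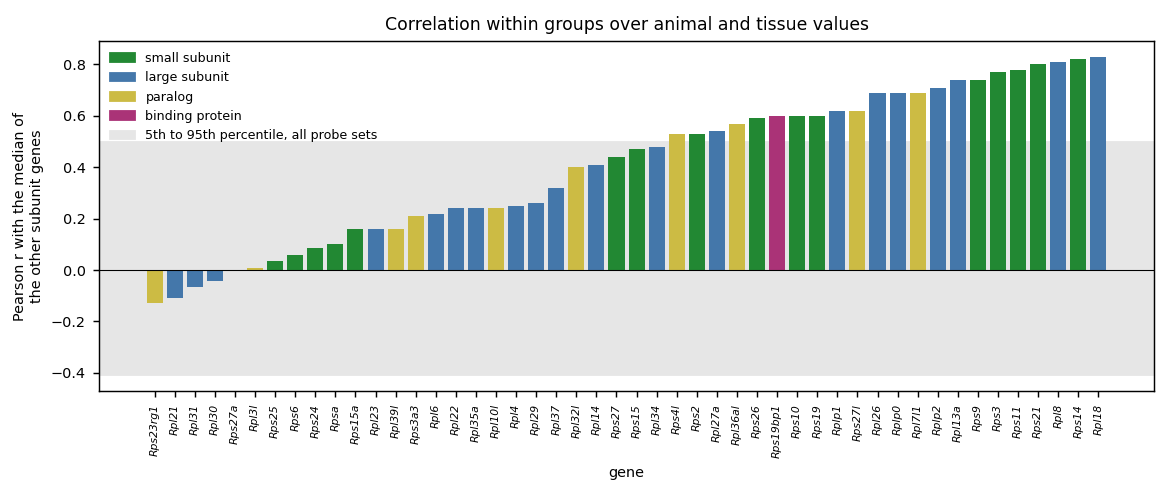
Pearson correlation (y axis) of 48 of the 50 genes (x axis) with the median of the other subunit genes over 125 values, each the deviation of an animal from the mean of its genotype, model and tissue, coloured by class. The grey band spans the 5th to 95th percentile of all probe sets, -0.41 to 0.50, and 22 of the 48 genes lie above it, from small and large subunit alike.

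Rack1, a scaffold protein of the small subunit outside the naming rule, had a correlation of 0.90 with the median of the subunit genes, above that of every member. Its change was -0.28 in Ts1Cje cortex and -0.15 in Dp(16)1/Yey forebrain and lay between -0.0972 and 0.0764 in the other comparisons, with no unadjusted P under 0.05. Fau, which encodes a subunit protein fused to a protein like ubiquitin, and the paralog Rpl22l1 were not analysed here. The mitochondrial ribosomal protein genes had a median correlation of 0.50, and the 13 ribosomal protein pseudogenes of 0.21.

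The non-member genes whose pattern over animals was most like the members' mean differed between comparisons. They were picked for the highest r of all named non-member genes, with genotype means left in, so a high r was bound to occur. In Ts1Cje cortex they were Ndufa1, Nubp1, Tmem222, Jtb and Polr2j, with r of 0.99 or more over 10 males. The family level there was 0.583 in Eup347 and -0.252 to -0.030 in the other males, so 1 array weighs heavily in these r. Those in Dp(16)1/Yey forebrain were Polr3d (0.97), Nub1 (0.95), Ciao3 (0.95), Itpripl1 (0.94) and Chchd1 (0.94) over 12 embryos. In Dp(16)1/Yey hippocampus they were Mms19 (0.95), Spata2l (0.94), 5031439G07Rik (0.94), Tbc1d17 (0.94) and Gpt (0.93) over 10 males.

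No paralog was DEX. Rpl7l1 was lower in Dp(16)1/Yey forebrain (-0.28) and hippocampus (-0.17) and lay between -0.18 and 0.16 elsewhere. Rps27l, a copy of Rps27 that p53 can induce, was lower in Dp(16)1/Yey forebrain (-0.22, SE 0.097, unadjusted P = 0.0366, adjusted P = 0.778) and lay between -0.32 and 0.16 in the others. Rpl36al ranged from -0.29 to 0.13 and Rpl10l, best known from the testis, from -0.26 to 0.40, without an unadjusted P under 0.05. Rps19bp1 ranged from -0.12 to 0.091.

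Wider pathway lists held DEX genes where the gene itself is triplicated. Of 76 mitochondrial ribosomal protein genes, Mrps6 was DEX in 6 comparisons (0.35 to 0.50) and Mrpl39 in 5 (0.46 to 0.57). Of 94 ribosome biogenesis genes, Urb1, which acts in early large subunit assembly, was DEX in 7 (0.33 to 0.45). Mrps6 and Urb1 lie in the MMU16 segments of all 3 models and Mrpl39 in those of Ts65Dn and Dp(16)1/Yey. Not every comparison with the extra copy gave a call. In Dp(16)1/Yey only forebrain did, for Urb1 and Mrpl39, and Mrps6 was not DEX in that model. Among the Ts1Cje tissues, Mrps6 was DEX in forebrain and hippocampus alone. None of 48 translation factors, 11 RNA polymerase I genes, 4 snoRNA host genes and 13 ribosomal protein pseudogenes was DEX in any comparison.

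Differences of the trisomic effect between regions or models were tested for every probe set as a contrast of contrasts. In the 9 contrasts between regions of a model, 0 members passed a joint FDR of 10%, with a lowest adjusted P of 0.994. In the 12 contrasts between models, 0 members passed, with a lowest adjusted P of 0.619. It belonged to Rpl14 in the forebrain, whose effect was higher in Ts65Dn than in Dp(16)1/Yey by 0.66 (SE 0.19, unadjusted P = 0.00138). In that contrast 13 members passed an unadjusted P of 0.05 as higher in Ts65Dn and 0 as lower, where 2.98% of all probe sets were higher and 3.49% lower. Between Ts1Cje and Dp(16)1/Yey forebrain 8 members passed as higher in Ts1Cje and 2 as lower, against 3.51% and 3.69%. Both contrasts use the same Dp(16)1/Yey embryos. The lowest P of a member between regions was that of Rps25 in Ts65Dn. Its effect was higher in cerebellum than in hippocampus by 1.03 (SE 0.3, unadjusted P = 0.00206, adjusted P = 0.994). Between hippocampus and cortex of Ts65Dn the effect on Rps25 differed by -0.91 (SE 0.30, unadjusted P = 0.00565, adjusted P = 1).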

How the data were processed

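Forebrain RNA of E15.5 embryos and RNA of 3 adult brain regions was hybridized to Affymetrix mouse gene arrays with custom probe sets of 1 per Entrez gene. The deposited log2 values were made by the authors with RMA (background correction, quantile normalization and probe summarization), separately for each model and tissue. The RMA version and genome build are not given in the sources used here. Arrays give no read depth, so the number of animals limits the precision, and changes of dim genes are compressed. Of 21225 probe sets, 20768 were named through RefSeq on GRCm38.p6 and 457 kept no name.

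Groups came from the sample titles. Repeats of an animal were averaged. Each comparison was fitted across all probe sets by limma 3.58.1 in R 4.3.3, two-sided, with no filter on signal, and P values of all 12 were adjusted together by Benjamini-Hochberg (DEX below 10%). Contrasts between regions took the animal as a block with statmod 1.5.0 (animal numbers in the titles show that the same male gave the regions, correlation 0.0611 for Ts1Cje mice, 0.0768 for Ts65Dn and 0.0691 for Dp(16)1/Yey). The fit was tested on simulated data. Python 3.11.15 with pandas made tables and figures. The members, gene lists and tests were chosen with earlier results of these data known.

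Named members were, in each comparison, the 3 higher and 3 lower ones of lowest unadjusted P under 0.05, any DEX, any past it in the same direction in 3 or more comparisons, the listed paralogs, Rps19bp1, Fau, Rack1 and the 5 most alike genes. Some genes under this rule are not reported here by name, and they stay in all counts and medians. Other members past P 0.05, members with extreme correlations, and Mrps6, Mrpl39 and Urb1 were named after their values were seen. Alternatives covered the methods' t-test, moderation, weights, normalization, filters, repeats, single animals, sex and olfactory receptor signal. Nothing says that the animals of a group came from separate litters, so P values measure the spread between these animals.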

Additional observations from a re-analysis of the deposited data

Results flagged for a closer look

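Values of 1 animal far from the rest of its group, by Dixon's criterion at 95%, were found in 6 groups. For the family level, 24 groups of 5 to 7 animals were tested and 1 was past the critical value, and for the log2 signals of the members named by rule, 58 groups were tested and 5 were. Chance gives about 1 in 20. The family level of the euploid Ts1Cje cortex of Eup347 was 0.583, with the gap to the next animal making up 0.735 of the range of its group. In Ts1Cje forebrain, Rps27 read 9.01 in the euploid embryo Eup11, the highest of its group. In Ts65Dn forebrain, Rps2 read 12.50 in the trisomic embryo TSm01, also the highest. Rps25 was past the criterion in all 3 comparisons in which it was lower at an unadjusted P under 0.05, each time in the euploid group: 5.32 in Eup17 of Ts65Dn hippocampus and 7.14 in Eupm03 of Dp(16)1/Yey forebrain were low values, and 6.72 in Eup279 of Dp(16)1/Yey cortex was a high one.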

How the results depend on the processing

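No member was DEX in any comparison under the alternatives run, except Rps25 in Ts65Dn hippocampus without Eup17 and Rps19 in Ts65Dn cerebellum without TS9 (0 to 1 DEX members over the animals left out in each). In both, the animal left out lay within the range of the other genotype. Of the 41 changes past an unadjusted P of 0.05, none changed direction, 15 stayed past it without any one animal, 30 under the methods' t-test, 32 after quantile normalization, 36 with arrays centred on their median, 30 with the olfactory receptor signal as a covariate, and 14 of the 15 embryonic ones with sex as a covariate.

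Counts of members past that P moved more. Under the methods' t-test they were 0 in Ts1Cje cortex (2 as reported), 0 in Ts1Cje cerebellum (3), 1 in Ts65Dn forebrain (3), 2 in Ts65Dn cortex (1), 2 in Ts65Dn hippocampus (1) and 0 in Dp(16)1/Yey cerebellum (1). With array weights they were 5 in Ts1Cje cerebellum, 2 in Ts65Dn cortex, 5 in Ts65Dn hippocampus and 5 in Ts65Dn cerebellum (2), and with trend and robust moderation 2 in Ts65Dn hippocampus and 2 in Dp(16)1/Yey cerebellum. Quantile normalization gave 0 in Ts1Cje cortex, 5 in Ts65Dn forebrain, 2 in Ts65Dn hippocampus, 4 in Ts65Dn cerebellum and 0 in Dp(16)1/Yey cerebellum, and centring gave 3 in Ts65Dn hippocampus and 4 in Ts65Dn cerebellum. The olfactory receptor covariate gave 6 in Ts1Cje hippocampus (3), 8 in Ts1Cje cerebellum, 5 in Ts65Dn forebrain, 2 in Ts65Dn cortex, 2 in Ts65Dn hippocampus, 4 in Ts65Dn cerebellum, 6 in Dp(16)1/Yey hippocampus (10) and 0 in Dp(16)1/Yey cerebellum. The first array alone gave 0 in Ts1Cje cortex and 5 in Ts1Cje hippocampus, subunit genes only 1 in Ts1Cje forebrain (2) and 0 in Ts65Dn cortex, and brighter probe sets only 0 in Dp(16)1/Yey cerebellum. Leaving out each animal gave 1 to 3, 0 to 5, 2 to 6 and 1 to 7 in Ts1Cje forebrain, cortex, hippocampus and cerebellum, 1 to 4, 1 to 3, 1 to 5 and 1 to 5 in those of Ts65Dn, and 4 to 16, 2 to 7, 3 to 11 and 0 to 3 in those of Dp(16)1/Yey. The cause was not tested.

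The counts here are of effects, summed over the contrasts, so a gene can count more than once. Without the replicate block (the animal), 10 effects of members differed between regions at that P, against 16 with it. Effects of all probe sets past the joint FDR were 5, against 12. In the fit as reported, 0.872% to 3.56% of all probe sets passed that P in 1 direction of a contrast between regions. Between models, array weights gave 64 effects of members at that P, against 41, and 420 effects of all probe sets past the joint FDR, against 95. As reported, 0.726% to 6.68% of all probe sets passed that P in 1 direction of a contrast between models. No effect of a member passed the joint FDR in any of these fits.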
